A study of Mus musculus with 22 samples.

Results

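Of the 22 arrays used here 11 carried RNA from hepatocytes kept in solvent alone, and the comparison described here sets the 48 h arrays (6) against the 24 h arrays (5). They were chosen by their sample titles, which name 0.5% v/v DMSO (dimethyl sulfoxide) for 48 h or for 24 h. The study grew primary mouse hepatocytes, liver cells taken directly from C57Bl6 animals, in minimal essential medium with 10% fetal bovine serum, amino acids, pyruvate and antibiotics. Cells received either cyclosporin A (CsA, a calcineurin inhibitor) or the solvent, and the miRNAs in their total RNA were measured on single-colour Agilent arrays. Both groups described here carried the same 0.5% DMSO and no CsA and differ in their titles by time after the medium change. The sample descriptions also tag each solvent array with 1 of 2 exposure series, and where an experiment gave 2 arrays at a time, 1 carries each tag. The labels place the arrays in 3 experiments. At 24 h, experiment 1 gave 1 array (replicate 1), experiment 2 gave replicates 3 and 4, and experiment 3 gave replicates 5 and 6. At 48 h, each experiment gave 2 arrays (replicates 1 and 2, 3 and 4, and 5 and 6). The titles call the arrays biological replicates without saying whether they came from separate animals or cultures, so p-values here measure the spread between these arrays, part of which may be technical. No untreated culture and no array from the time of plating was analysed here. The question was which miRNAs changed with another day in culture when no drug was present.

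A miRNA is a short RNA that pairs, mainly through bases 2 to 8 at its 5′ end (the seed), with messenger RNAs and lowers their translation or stability. Several miRNAs are often cut from 1 primary transcript, so that neighbours in the genome can share a promoter, while paralogous loci carry members with the same seed. Hepatocytes in vivo hold very high miR-122, and cells in plate culture are known to lose liver-specific expression and to take up features of cell cycle entry with time. The miR-17 to miR-92a locus and its paralogs are known for expression in dividing cells, and miR-210 is the standard hypoxia-induced miRNA.

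The mature sequences of the miRNAs that changed are shown first, beside those of genomic neighbours and seed relatives. Sequences and positions are from RefSeq on GRCm38.p6, where 206 of the 253 tested miRNAs had a mature sequence that was used (3 of them through a synonym), 11 of the 13 that changed among them. Seeds are in capitals. The first set comes from chr8:84208563-84208896 on the plus strand and holds the neighbours miR-23a, miR-27a and miR-24-2, with miR-27b from chromosome 13 for comparison. Between miR-27a-3p and miR-27b-3p 1 base of 21 differs, outside the seed (C19U, counted from the 5′ end).
miR-23a-3p: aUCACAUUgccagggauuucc
miR-27a-3p: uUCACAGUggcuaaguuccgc
miR-24-3p: uGGCUCAGuucagcaggaacag
miR-27b-3p: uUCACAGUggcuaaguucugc

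The second set comes from chr17:17830194-17830876 on the plus strand, within the span of Spaca6, where miR-99b, let-7e and miR-125a lie in 683 bases. Their family members miR-99a-5p, let-7a-5p and miR-125b-5p come from other loci and keep the same seeds. Between let-7e-5p and let-7a-5p 1 base differs (G9U), and between miR-99b-5p and miR-99a-5p 4 differ (C1A, A11U, C16U and C21U).
miR-99b-5p: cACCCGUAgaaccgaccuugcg
miR-99a-5p: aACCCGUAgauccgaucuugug
let-7e-5p: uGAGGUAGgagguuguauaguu
let-7a-5p: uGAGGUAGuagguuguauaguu
miR-125a-5p: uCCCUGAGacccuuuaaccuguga
miR-125b-5p: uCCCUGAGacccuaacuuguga

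The third set shows the seed AAAGUGC, shared by 5 tested miRNAs of 3 paralogous loci. These are the miR-17 to miR-92a locus (chr14:115043684-115044496, plus strand), its X-chromosome paralog (chrX:52741854-52742181, minus strand) and the miR-25, miR-93 and miR-106b locus (chr5:138165332-138165807, minus strand, within the span of Mcm7). The seed of miR-18a-5p, from the chromosome 14 locus, is AAGGUGC. miR-20a-5p differs from miR-20b-5p at 2 bases of 23 (U1C and U10C) and from miR-93-5p at 4 (U1C, U10G, A11U and A13C).
miR-17-5p: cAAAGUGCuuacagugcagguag
miR-20a-5p: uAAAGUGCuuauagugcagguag
miR-20b-5p: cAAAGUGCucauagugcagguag
miR-93-5p: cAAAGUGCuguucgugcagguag
miR-106b-5p: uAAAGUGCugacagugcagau
miR-18a-5p: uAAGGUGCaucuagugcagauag

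The remaining changed miRNAs with a matched sequence stood alone. miR-28a lies within the span of Lpp at chr16:24827868-24827889 (plus strand). miR-126, matched to RefSeq as miR-126a-3p, lies within that of Egfl7 at chr2:26591402-26591423 (plus strand). miR-210 lies at chr7:141221407-141221428 (minus strand) outside any protein-coding or long non-coding gene span of the table. miR-1949 and miR-3096b-3p are named only.
miR-28a-5p: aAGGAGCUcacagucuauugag
miR-126-3p: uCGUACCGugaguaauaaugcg
miR-210-3p: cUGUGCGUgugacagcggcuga

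The arrays carried probes for 1247 miRNAs, and 236 to 334 of them carried the deposited flag for a detected miRNA on a DMSO array. Levels are given as scaled intensities on a log2 scale, the signal divided by a high percentile of commonly detected probes on the same array, so that 0 is the level of that percentile. Values under 0.0459 on the linear scale were set to it (-4.44 on the log2 scale), and such arrays have no order among themselves. The percentile used for scaling was 181 to 373 at 24 h and 250 to 350 at 48 h (exact permutation p = 0.788, two-sided). For the 7 array-level measures the lowest exact permutation p was 0.353 over all 11 arrays (0.788 after adjustment over the 7). In an exact permutation of the times within experiments (108 arrangements, smallest possible p = 0.00926), added after seeing the data, the lowest p was 0.296 (0.984 after adjustment). That value belonged to the share of miR-122-5p in an array's summed signal, which was lower at 48 h by 2.69, 1.59 and 0.26 percentage points in experiments 1, 2 and 3. The negative controls stood apart on 48 h replicate 1, at 33.7 against at most 4.52 on the other 10 DMSO arrays. The hepatocyte marker miR-122-5p was well above background on all 11 arrays and took 6.76% to 13.8% of an array's summed miRNA signal. On average it took 9.85%, less than miR-6366 (20.7%) and miR-5109 (13.7%). In the labels 1 protocol field names HepG2 cells, a human line, while the others name primary mouse hepatocytes, which is followed here.

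After a further day in DMSO, 11 miRNAs were higher and 2 were lower. They were tested in 1 linear model over the 11 arrays with the experiment as a block (limma, adjusted p under 0.05 by Benjamini-Hochberg over 253 miRNAs). The 13 called are 5.14% of those tested, 4.35% higher and 0.791% lower, and 12 of them changed over 1.5-fold. The largest rise was 2.33-fold, for miR-27a-3p, and the larger fall was 1.68-fold, for miR-126-3p. At an unadjusted p under 0.05 there were 40 (15.8%), 31 of them higher (12.3%) and 9 lower (3.56%). The median difference over all tested miRNAs was 0.07 on the log2 scale, with 161 positive and 92 negative values. Called miRNAs were above background on all 11 arrays in 11 of 13 cases, the others being miR-99b-5p and miR-18a-5p.

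**Figure D1:**
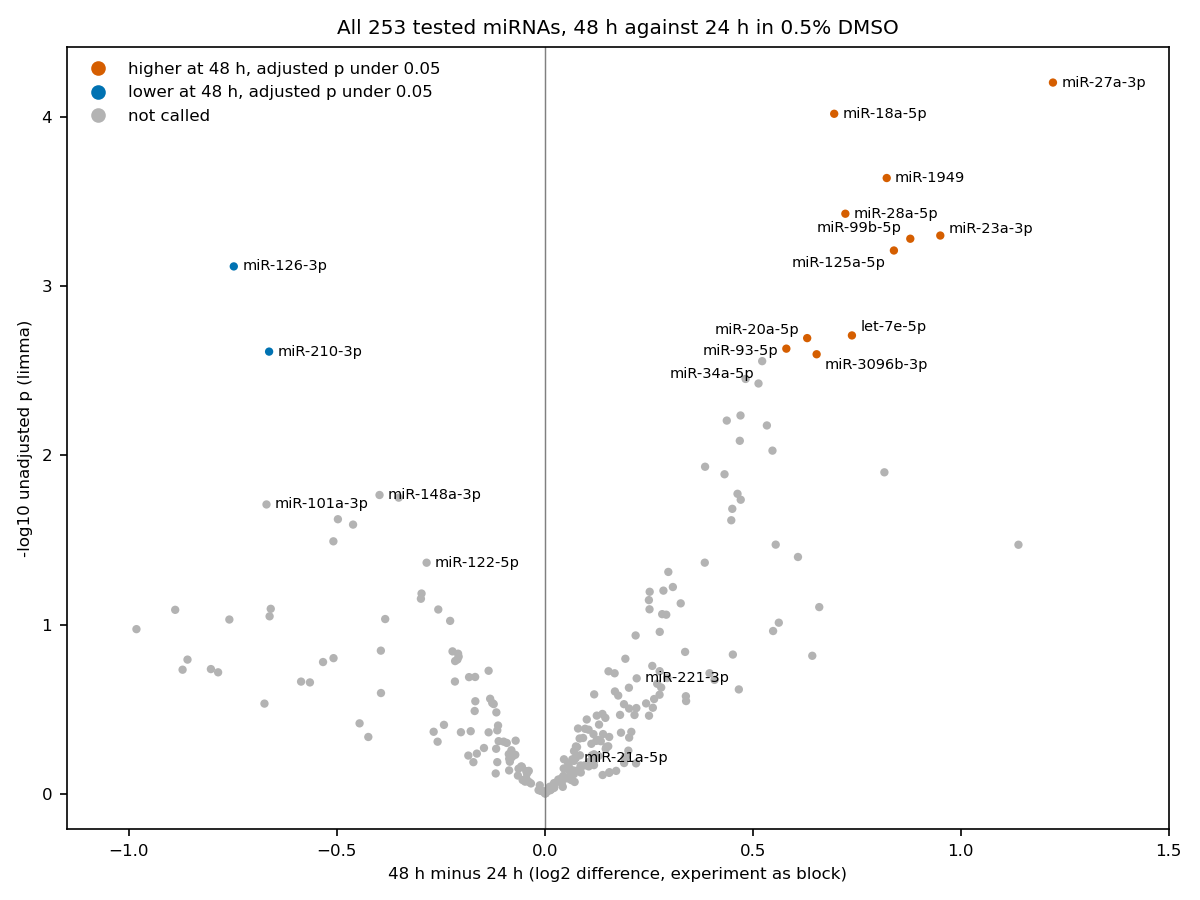
Each point is 1 of 253 tested miRNAs; the horizontal axis is the log2 difference in scaled intensity between 48 h and 24 h in DMSO with the experiment as a block, the vertical axis is -log10 of the unadjusted limma p. The 11 miRNAs called higher (orange) lie between 0.58 and 1.22 and the 2 called lower (blue) at -0.75 and -0.66; miR-122-5p and miR-101a-3p lie on the negative side and were not called.

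These calls sit close to the threshold. Of the 13, 5 had an adjusted p of 0.0491 (limma), and miR-34a-5p followed at 0.0501. The directions of all 13 were the same in every alternative model, scaling and normalization in which they were tested and with any single array left out, single slides apart. The count of calls was not: it was 0 without the experiment term (27 at an unadjusted p under 0.05), with the slide as a block in its place (11), with scaling over all probes (25), after quantile normalization (33), after normexp with quantile normalization (32), and in the deposited value table (30). On the means of each experiment and time, an alternative chosen after seeing the data, it was 0 as well (30 at an unadjusted p under 0.05, lowest limma adjusted p = 0.251). It was also 0 without 24 h replicate 1, without 48 h replicate 3 or without 48 h replicate 6, and 2 without 24 h replicate 3 or 48 h replicate 4. Normexp with quantile normalization also gave smaller differences, such as 0.60 for miR-27a-3p, 0.52 for miR-23a-3p and -0.25 for miR-126-3p, while miR-210-3p kept -0.65.

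The miR-23a, miR-27a and miR-24-2 neighbours on chromosome 8 gave the largest rise, with unadjusted p under 0.05 for 3 of 3 and a median difference of 0.95. miR-27a-3p, a known regulator of lipid metabolism and adipocyte formation, measured -2.13, -2.63, -2.38, -4.01 and -3.32 at 24 h (replicates 1, 3, 4, 5 and 6). At 48 h it ran from -2.67 through a median of -1.35 to -0.18. The experiment 3 arrays were lowest at both times, and their 48 h values overlapped the 24 h values of experiments 1 and 2, while within each experiment the 48 h arrays lay above the 24 h arrays. The difference was 1.22 ± 0.18 (log2, SE, n = 5 and 6, limma adjusted p = 0.0121), and within experiments 1, 2 and 3 it was 1.57, 1.16 and 1.05.

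Its neighbour miR-23a-3p measured -1.89, -2.52, -2.12, -3.28 and -2.80 at 24 h. At 48 h its lowest, median and highest values were -2.36, -1.31 and -0.34. It showed the same order of experiments, and the groups overlapped only across experiments. The difference was 0.95 ± 0.19 (SE, 1.93-fold, limma adjusted p = 0.0221). miR-24-3p, whose sequence is also encoded beside miR-27b on chromosome 13, measured -0.57 ± 0.35 and -0.10 ± 0.34 (SD, n = 5 and 6). Its difference of 0.43 ± 0.14 (SE) was not called (limma adjusted p = 0.136). The chromosome 13 members showed smaller values still: miR-27b-3p differed by 0.14 ± 0.14 and miR-23b-3p by 0.13 ± 0.14 (SE, limma adjusted p = 0.717 and 0.78). Since miR-27a-3p and miR-27b-3p differ by 1 base, signal of each on the probe of the other cannot be told apart here, and the difference between the 2 loci was not tested.

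From the chromosome 17 locus 3 of 5 tested arms were called, and the median of the 5 was 0.74. miR-125a-5p, which shares its seed with miR-125b-5p, measured -3.27, -3.58, -3.44, -4.12 and -3.67 at 24 h. At 48 h it ran from -3.61 through a median of -2.66 to -1.86, and rose by 0.84 ± 0.17 (log2, SE, limma adjusted p = 0.0222). The lowest 48 h array, replicate 5 of experiment 3, lay within the 24 h range and above both 24 h arrays of its own experiment. let-7e-5p, of the let-7 family that is known to restrain growth genes, measured -2.57, -3.04, -2.57, -3.40 and -2.84 at 24 h. At 48 h it ran from -2.61 through -2.04 to -1.24, and only replicate 5 of experiment 3 reached into the 24 h range. It rose by 0.74 ± 0.18 (SE, limma adjusted p = 0.0491).

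The third, miR-99b-5p, was well above background on 0 of 5 arrays at 24 h and on 6 of 6 at 48 h. It stood at the floor of -4.44 on 4 of the 24 h arrays and at -4.35 on replicate 1, and at 48 h it ran from -4.16 through -3.50 to -2.74. It was the only 1 of the 253 (0.395%) with every 48 h array above every 24 h array. It passed the filter of 3 arrays above background only through the 48 h arrays, so the filter itself favoured this separation and its call. Against the highest of the floor, the lowest signal measured above background and its own signal on each 24 h array, it was at least 1.84-fold higher at 48 h (fitted difference 0.88 ± 0.17 log2, SE, limma adjusted p = 0.0221). Values at the floor vary less than measured ones, so that the fitted error is too small here, and with the floor doubled the difference was 0.16 and not called.

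The opposite arms and the relatives from other loci were not called. miR-99b-3p differed by -0.01 ± 0.20 and miR-125a-3p by 0.19 ± 0.17 (SE), and within experiments 1, 2 and 3 miR-99b-3p gave -0.81, 0.03 and 0.48. Of the relatives, miR-99a-5p was at -2.43 ± 0.35 and -2.46 ± 0.32 (SD) and miR-125b-5p at -0.84 ± 0.34 and -0.90 ± 0.29. Their differences had intervals of -0.36 to 0.25 and -0.39 to 0.24 (95%). Of the 9 tested let-7 family members only let-7e-5p was called. let-7i-5p, at 0.39 ± 0.12, and miR-98-5p, at 0.47 ± 0.17 (SE), had adjusted p = 0.134 and 0.165 (limma), and let-7a-5p, the single-base relative of let-7e-5p, differed by 0.04 ± 0.16. The family's median was 0.18 with 6 positive and 3 negative values.

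The tested members of the miR-17 to miR-92a locus and its paralogs gave positive values throughout. Of 17 members on the arrays 11 were tested, and the others, such as miR-18b-5p and miR-363-3p, were above background on 0 of 11 arrays. Among the 11 tested, 3 were called higher and 0 lower, beside 4.35% and 0.791% of all tested miRNAs. At an unadjusted p under 0.05 (limma) 9 were higher, beside 12.3% of all. All 11 were positive, beside 63.6% of all, and their median was 0.53, beside 0.07. The list was chosen with earlier results of these data known, so these counts are no test of it. Of the tested miRNAs at the X-chromosome paralog, miR-92a-3p and miR-19b-3p are also encoded on chromosome 14, so that locus rests on miR-20b-5p alone. miR-18a-5p measured -3.30, -3.85 and -3.87 in replicates 1, 3 and 4 at 24 h and was at the floor in both arrays of experiment 3. At 48 h it ran from -3.83 through -3.14 to -2.35. The rise was 0.70 ± 0.11 (log2, SE, limma adjusted p = 0.0121), with 0.74, 0.72 and 0.64 in experiments 1, 2 and 3. Experiment 3 gave the lowest arrays at both times, and its 48 h values overlapped the 24 h values of experiments 1 and 2. Its difference is a lower bound set by the floor, so how even the rise was is not known. Values at the floor vary less than measured ones, so the fitted error can be too small here too. Under the alternatives the difference ran from 0.22 to 0.94 and was called in 8 of 17.

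miR-20a-5p measured -0.24, -0.81, -0.54, -1.86 and -1.35 at 24 h. At 48 h its lowest, median and highest values were -0.79, -0.22 and 0.63. Groups overlapped across experiments, with replicate 1 at 24 h as high as the middle 48 h arrays. The rise was 0.63 ± 0.15 (SE, 1.55-fold, limma adjusted p = 0.0491). miR-93-5p, of the chromosome 5 locus, measured -1.47, -1.83, -1.45, -2.69 and -2.14 at 24 h. It ran from -1.78 through -1.16 to -0.77 at 48 h and rose by 0.58 ± 0.14 (SE, limma adjusted p = 0.0491), again with its lowest arrays in experiment 3, whose 48 h values overlapped the 24 h values of the others.

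The uncalled members followed with smaller or noisier values. miR-106b-5p (0.44 ± 0.13), miR-25-3p (0.47 ± 0.14), miR-20b-5p (0.53 ± 0.16), miR-92a-3p (0.55 ± 0.17) and miR-17-3p (0.47 ± 0.13, all log2 and SE) had adjusted p from 0.0864 to 0.113 (limma). miR-17-5p was at 0.56 ± 0.22, with within-experiment values of 0.04, 0.39 and 1.06. The miR-19 members, whose seed differs, were lowest: miR-19b-3p at 0.28 ± 0.16 and miR-19a-3p at 0.08 ± 0.22. All 5 miRNAs with the seed AAAGUGC had an unadjusted p under 0.05 and a positive value, from 0.44 to 0.63, and 2 of them were called. The probes of such close relatives may share signal, so these are not 5 independent measurements.

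**Figure D2:**
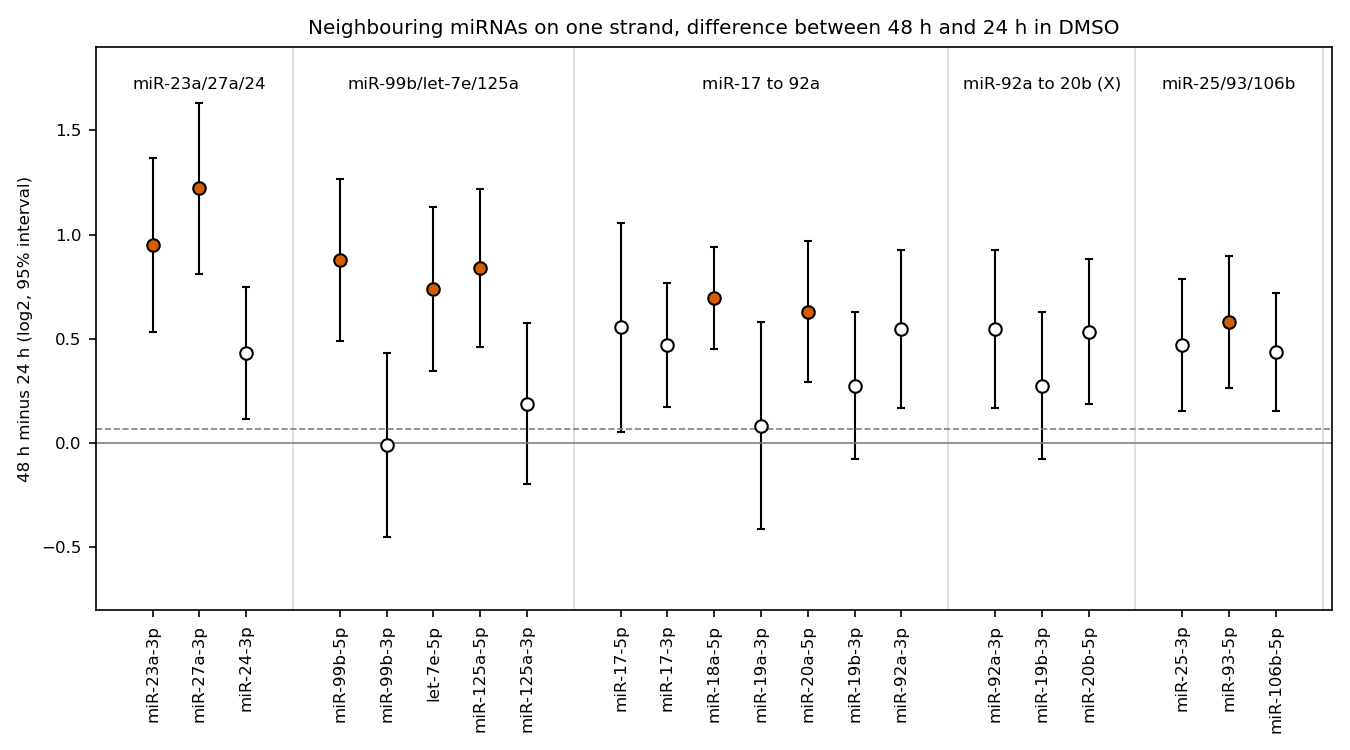
The vertical axis is the log2 difference in scaled intensity, 48 h minus 24 h in DMSO, with 95% intervals from the limma fit, for the tested miRNAs of 5 groups of neighbours on 1 strand; miR-92a-3p and miR-19b-3p are encoded in 2 loci and drawn in both. Filled points were called, the dashed line is the median of all 253 miRNAs (0.07); the highest point is miR-27a-3p at 1.22 and the only negative one is miR-99b-3p at -0.01.

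Seen by position, most calls lay in these loci. Mature sequences on 1 strand no more than 10000 bases apart formed 29 groups with 2 or more tested members. These held 67 of the 206 miRNAs with a RefSeq position. Some of the groups hold only both arms of 1 precursor, such as miR-21a-3p and miR-21a-5p, and not neighbouring genes. Of the 11 called miRNAs with a position 8 lay in such groups, and 7 lay in the 3 groups that held more than 1 call. Neighbours can share a transcript and in part their sequence, so they cannot be taken as independent of each other, and no test of this clustering was made.

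A further 3 miRNAs rose. Of these miR-28a-5p lay outside these loci, while miR-1949 and miR-3096b-3p had no position that was used here. miR-28a-5p, encoded within the span of Lpp, a cell adhesion gene, measured -3.78, -3.98, -3.73, -4.42 and -4.21 at 24 h and ran from -3.85 through -3.17 to -2.71 at 48 h. Only the experiment 3 arrays at 48 h fell among the 24 h values, and the rise was 0.72 ± 0.14 (log2, SE, limma adjusted p = 0.0221). miR-1949 measured -1.52, -2.52, -2.00, -2.87 and -2.53 at 24 h and ran from -2.00 (experiment 3) through -1.42 to -0.32 at 48 h. Its rise of 0.82 ± 0.14 (SE, limma adjusted p = 0.0193) was close to even over experiments, at 0.95, 0.84 and 0.72. miR-3096b-3p measured -0.38, -1.21, -0.79, -1.95 and -1.59 at 24 h and ran from -0.92 through -0.49 to 0.18 at 48 h, with overlap across experiments. It rose by 0.65 ± 0.16 (SE, limma adjusted p = 0.0491), least in experiment 1 (0.36) and most in experiment 3 (1.00). miR-34a-5p, known as a p53-responsive miRNA, had 0.20 ± 0.50 at 24 h and 0.81 ± 0.53 at 48 h (SD). Its difference of 0.52 ± 0.13 (SE) missed the threshold at an adjusted p of 0.0501 (limma), although its 48 h arrays were higher in each experiment.

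The 2 miRNAs that fell were miR-126-3p and miR-210-3p. miR-126-3p, encoded within Egfl7 and known as the endothelial miRNA, measured -2.42, -3.34, -2.99, -3.15 and -2.76 at 24 h. At 48 h its highest, median and lowest values were -2.63, -3.78 and -4.19. Experiment 1 was highest at both times, and its 48 h arrays overlapped the 24 h arrays of the others. The difference was -0.75 ± 0.16 (log2, SE, 1.68-fold lower, limma adjusted p = 0.0241), and -0.50, -0.84 and -0.82 within the experiments. In a bulk culture, fewer cells of a type and less RNA per cell cannot be told apart. Its opposite arm, miR-126-5p, was above background on 0 of 11 arrays, so the endothelial list rests on this 1 miRNA, and the part of cell makeup in the fall was not tested.

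miR-210-3p, the hypoxia-induced miRNA, measured 0.48, 0.69, 1.11, 0.59 and 0.80 at 24 h. At 48 h it ran from -0.75 through 0.16 to 0.52. Both experiment 1 arrays at 48 h lay below 0, and only 48 h replicate 6 (0.52) reached the 24 h range, whose lowest array was at 0.48. The difference was -0.66 ± 0.16 (SE, 1.58-fold lower, limma adjusted p = 0.0491), and it shrank from -1.13 in experiment 1 to -0.73 and -0.29 in experiments 2 and 3.

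**Figure D3:**
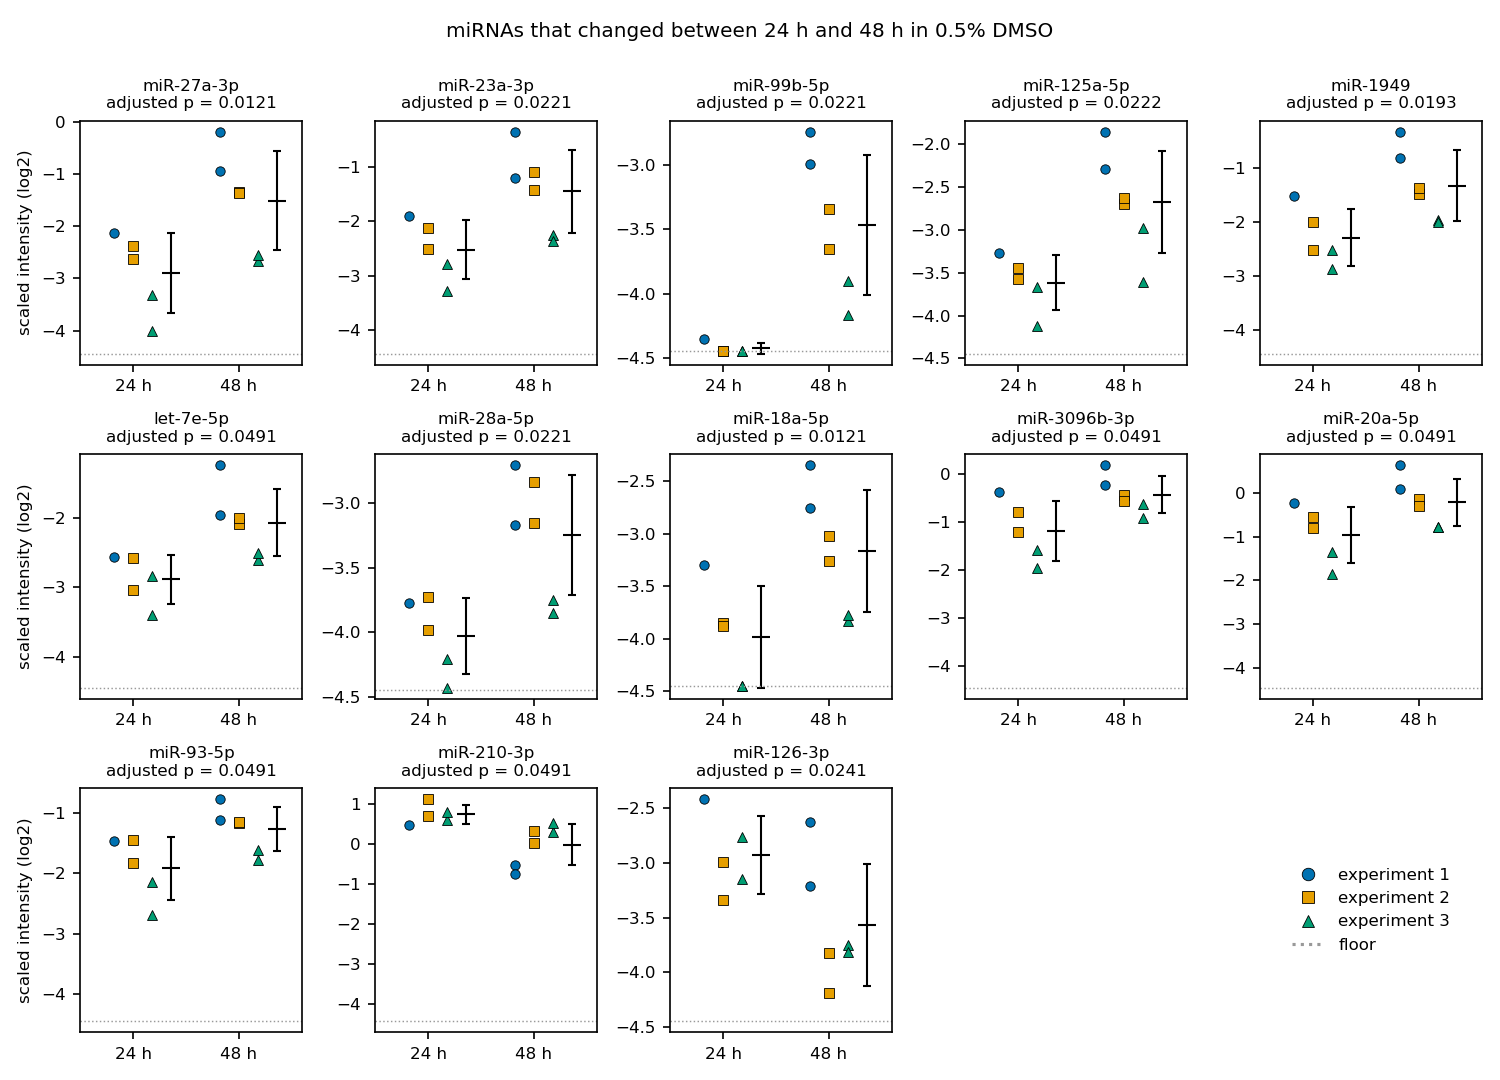
Each panel shows 1 of the 13 called miRNAs, with scaled intensity (log2, own axis range per panel) for the 5 arrays at 24 h and the 6 at 48 h, coloured by experiment; black marks are mean and SD, the dotted line is the floor at -4.44. Within each experiment the arrays of the 2 times do not overlap, and for miR-27a-3p experiment 3 lies lowest at both times.

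Within experiments, the groups of all 13 called miRNAs were separate: each 48 h array lay on 1 side of each 24 h array of its experiment, in all 3. Over all tested miRNAs this held for 23 (9.09%) above and 3 (1.19%) below, the uncalled ones including miR-34a-5p, 5 members of the miR-17 list (miR-17-3p, miR-106b-5p, miR-20b-5p, miR-25-3p and miR-92a-3p), let-7i-5p, miR-98-5p and, below, miR-148a-3p. The experiments themselves differed in 31 miRNAs (12.3%, limma F test, adjusted p under 0.05), and with the experiment term the median residual SD fell from 0.403 to 0.288. The 3 slides each held arrays of both times but not of the same experiments: on slide 2 the 24 h arrays were from experiments 2 and 3 and both 48 h arrays from experiment 1. Within slide 2 the difference for miR-27a-3p was 2.63, within slides 1 and 3 it was 0.43 and 0.34. Within slide 3 miR-18a-5p (-0.076), miR-1949 (-0.079), miR-20a-5p (-0.16) and miR-3096b-3p (-0.16) had the opposite sign, as had miR-126-3p within slide 2 (0.15). With experiment and slide both in the model, 4 miRNAs were called, all higher and all among the 13.

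**Figure D4:**
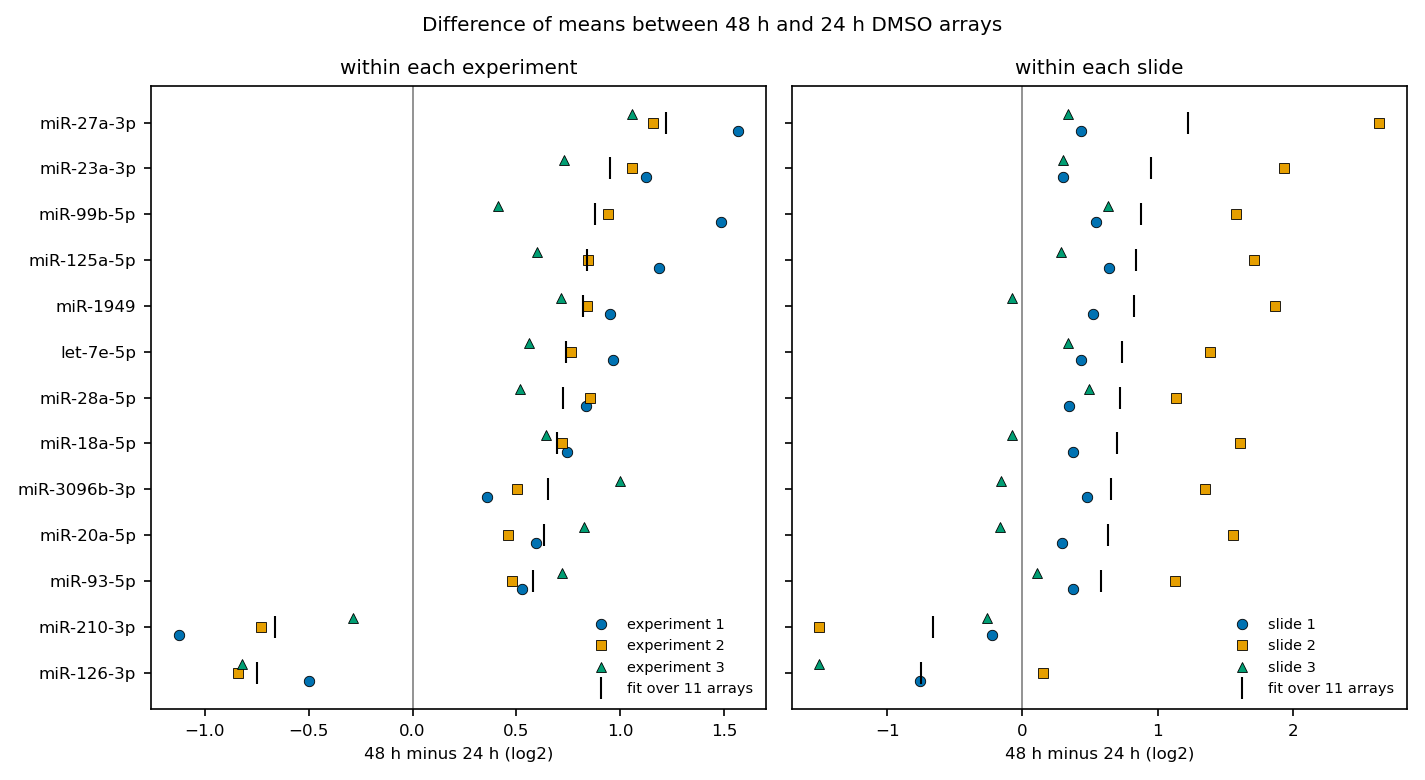
The horizontal axis is the difference of mean scaled intensity (log2), 48 h minus 24 h, for the 13 called miRNAs, within each experiment (left) and within each slide (right); ticks mark the value fitted over 11 arrays. All values within experiments keep the sign of the fit, while within slides 5 of them change it, as for miR-20a-5p at -0.16 on slide 3.

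The hepatocyte-enriched miRNAs leaned the other way, without a call. Of 14 on the array, 13 were above background on at least 1 DMSO array and 11 were tested. None was called, and 10 of 11 were negative with a median of -0.23, beside 92 of all 253 tested. An unadjusted p under 0.05 was found for 5, beside 3.56% of all tested miRNAs lower at that level. The 11 include both arms of miR-122 and of miR-192 and the close relatives miR-101a-3p and miR-101b-3p, so they are not independent measurements. miR-122-5p, known as the most abundant liver miRNA in vivo, measured 5.90, 5.52, 5.91, 5.45 and 5.75 at 24 h. At 48 h it ran from 5.33 through 5.38 to 5.69. The 24 h arrays were mostly higher, with overlap between 5.45 and 5.69, and the difference was -0.28 ± 0.12 (log2, SE, interval -0.56 to -0.01, limma adjusted p = 0.279). It was negative in each experiment, at -0.38, -0.24 and -0.26.

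Others of the list gave larger but less even values. miR-101a-3p, at -3.20 ± 0.41 and -3.83 ± 0.40 (SD), differed by -0.67 ± 0.24 (SE, limma adjusted p = 0.17), with -0.20, -0.25 and -1.40 in experiments 1, 2 and 3. Its close relative miR-101b-3p differed by -0.51 ± 0.20 and miR-193a-3p by -0.46 ± 0.18, both also mostly in experiment 3 (-1.12 and -0.93). miR-148a-3p, which acts on lipoprotein uptake, differed by -0.40 ± 0.14 (limma adjusted p = 0.165) and was lower in each experiment without overlap. miR-192-5p (-0.23 ± 0.12) and miR-194-5p (-0.21 ± 0.14) did not differ detectably, nor did miR-22-3p, at 0.02 ± 0.13 with an interval of -0.26 to 0.30.

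**Figure D5:**
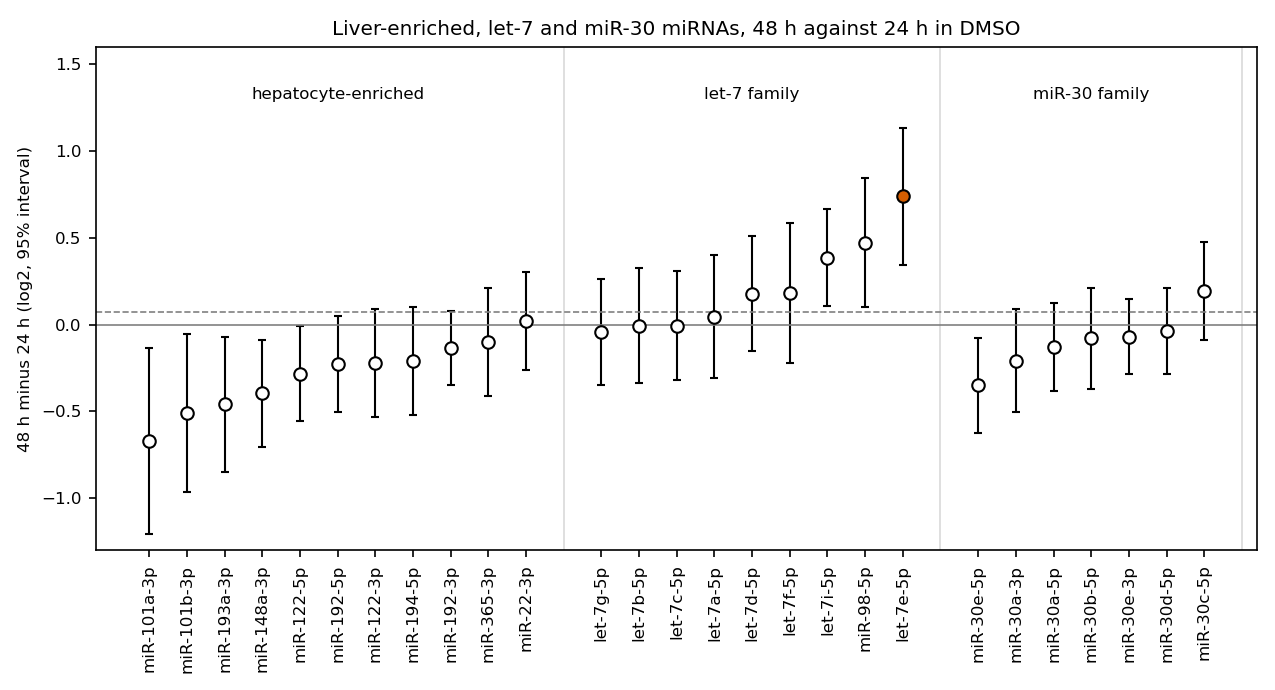
The vertical axis is the log2 difference in scaled intensity, 48 h minus 24 h in DMSO, with 95% intervals from the limma fit, for the tested hepatocyte-enriched, let-7 and miR-30 miRNAs; the filled point was called and the dashed line is the median of all tested miRNAs (0.07). Of the hepatocyte-enriched miRNAs 10 of 11 lie below 0, of the let-7 family 6 of 9 lie above it, and of the miR-30 family 6 of 7 lie below it. Both arms of miR-122, miR-192, miR-30a and miR-30e are drawn, so the points are not independent.

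No call came from the other families. In the miR-30 family 6 of 7 values, both arms of miR-30a and of miR-30e among them, were negative with a median of -0.08. The lowest was miR-30e-5p at -0.35 ± 0.12 (SE, limma adjusted p = 0.165). All 3 members of the miR-29 family, which acts on collagen genes, were negative (median -0.24, led by miR-29c-3p at -0.30 ± 0.14), with 0 called. Among miRNAs of proliferation and dedifferentiation, miR-21a-5p was at 4.69 ± 0.16 and 4.80 ± 0.38 (SD) and differed by 0.07 ± 0.14 (SE), and miR-221-3p differed by 0.22 ± 0.16. miR-31-5p had 0.45 ± 0.17 with an adjusted p of 0.191 (limma), and miR-182-5p and miR-183-5p had -0.09 ± 0.13 and 0.07 ± 0.12. The list had 0 of 9 called and a median of 0.07. The 5 tested p53-responsive miRNAs, miR-34a-5p among them, had a median of -0.11. miR-212-3p, a target of CREB, differed by -0.53 ± 0.36 and the 3 tested inflammation miRNAs had a median of -0.04, with 0 called.

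Lists of small families gave 0 calls throughout. Their medians were -0.07 for the miR-15 and miR-16 family (3 tested), -0.11 for miR-26 (2), -0.04 for miR-103 and miR-107 (2), 0.08 for miR-130a-3p (1) and -0.11 for miR-148a, miR-148b and miR-152 (3). The 8 tested lipid metabolism miRNAs had a median of -0.06. Of 95 miRNAs listed for the Dlk1-Dio3 imprinted cluster, little expressed in adult liver, 6 were tested, with a median of 0.06. The lowest, miR-487b-3p at -0.50 (limma adjusted p = 0.191), passed the filter only through 24 h arrays. The list leaves out some tested miRNAs of this stretch of chromosome 12, such as miR-432 (-0.18) and miR-3070b-3p (0.01). Of 51 miRNAs listed for the families of the Sfmbt2 intron cluster 7 were tested, with a median of 0.04. Not all of them lie there: miR-466i-3p has its RefSeq position on chromosome 13, within the span of Cdk13. The signs for miR-130a-3p, lipid metabolism and the Sfmbt2 list were not the same under all settings, with ranges of -0.07 to 0.13, -0.12 to 0.01 and -0.23 to 0.20. Nor was that of miR-145a-5p, described next.

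Markers of other liver cell types were mostly at background, apart from the endothelial miR-126-3p, which was above it on all 11 DMSO arrays. All 5 leukocyte and macrophage miRNAs, both erythroid ones and all 5 of the miR-200 family of other epithelia were above background on 0 of 11 DMSO arrays. Of the mesenchymal and stellate list, miR-143-3p, miR-199a-3p, miR-199a-5p and miR-214-3p were at background on all 11 as well. miR-145a-5p was above it on 4 of 5 arrays at 24 h and 3 of 6 at 48 h (difference 0.11 ± 0.26, SE). Across alternative settings its difference ran from -1.01 to 0.145, with the same sign in 14 of 17.

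The change with time was also set against that of the CsA arrays, in 1 model over all 22 arrays with both CsA doses pooled (11 CsA arrays). No miRNA differed between DMSO and CsA in its change with time (limma, 0 called, lowest adjusted p = 0.567), and 15 (5.93%) had an unadjusted p under 0.05. The lowest p belonged to miR-125a-5p, which changed by 0.87 ± 0.23 in DMSO and by -0.11 ± 0.23 in CsA, a difference of 0.97 ± 0.32 (log2, SE). miR-221-3p followed, at 0.21 ± 0.17 and -0.52 ± 0.17, and miR-31-5p, at 0.48 ± 0.16 and -0.19 ± 0.16. miR-28a-5p gave 0.73 ± 0.19 and 0.03 ± 0.19. Since the difference itself was not called for any of them, the changes in DMSO are not shown to be particular to solvent.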

How the data were processed

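MiRNAs were measured on 22 arrays, 11 of them DMSO arrays. Per the file headers, the deposited spot intensity is the processed signal, corrected for background by Feature Extraction 10.7.3.1. The authors also deposited a table of log2 values, for which the submitters' processing notes name R 2.15.2. Flooring, quantile normalization and log2 of the deposited signals rebuilt all 11 DMSO columns of it within 1e-06, and 8 of these columns carried the name of another DMSO array of the same time and experiment, which leaves the comparison unchanged. The deposited labels name biotin as the label in 1 field and the Agilent kit in another.

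Spots not marked as outliers were averaged per probe, scaled to the 75th percentile of those 284 probes that passed the background flag on each of the 22 arrays, floored and put on a log2 scale. The brightest probe stood for a miRNA, and 253 miRNAs well above background on at least 3 of the 11 DMSO arrays were tested with limma 3.58.1 in R 4.3.3 (difference of 48 h and 24 h, experiment as block). The number of arrays limits the precision. Alternatives covered the blocks, slide, scaling, normalization, filter, floor and left-out arrays. Replicate numbers did not pair arrays across times (correlations of deviations from -0.15 to 0.41). The members and lists were chosen with earlier results of these data known. Named miRNAs were those called (at most 15 a direction), the 5 with the lowest p among those lower, 14 preset ones, called or brightest list members, the 10 brightest, their other arms and the 5 with the lowest p against CsA. Neighbours and seed relatives were added after their values were seen.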

Additional observations from a re-analysis of the deposited data

Results flagged for a closer look

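Among 138 groups of arrays examined for a single array standing apart from the rest (Dixon's 95% critical value), 14 (10.1%) held one. The nominal rate of about 1 in 20 holds for independent groups of normally spread values. These groups share the same arrays and some hold values at the floor, so the share cannot be read against that rate. Of the 14, 6 were on 48 h replicate 5, of experiment 3. It was lowest for miR-194-5p (0.028, other 48 h arrays 0.44 to 0.63) and miR-125b-5p (-1.46, others -0.95 to -0.70). It was highest for miR-494-3p (2.40, others 1.75 to 1.96), miR-5109 (7.01, others 5.62 to 6.13), miR-5126 (4.10, others 3.31 to 3.45) and miR-125a-3p (-0.57, others -1.68 to -1.29). Without this array 10 miRNAs were called, 9 higher and 1 lower.

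At 24 h, replicate 5 was far above the others for miR-466h-3p (-1.04, others -4.07 to -3.22) and miR-466i-3p (-2.12, all others at the floor of -4.44). Both are on the Sfmbt2 list, although miR-466i-3p has its RefSeq position on chromosome 13. miR-5109 was low in 24 h replicate 3 (5.50, others 6.05 to 6.20). miR-30e-3p, near background, was at -4.17 in 24 h replicate 4 (others -4.44 to -4.37). miR-99b-5p was at -4.35 in 24 h replicate 1, with all other 24 h arrays at the floor, so that this gap has no measured scale.

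Of the array-level measures, the negative controls averaged 33.7 on 48 h replicate 1 (others 2.19 to 3.02). The share of outlier spots was 6.50% on 24 h replicate 3 (others 3.29% to 3.38%) and 8.40% on 48 h replicate 6 (others 3.12% to 4.02%). Without 48 h replicate 1 there were 11 calls, without 24 h replicate 3 there were 2 (both higher), and without 48 h replicate 6 there were 0. The part of spot quality in these counts was not tested.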

How the results depend on the processing

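All 13 called miRNAs kept their direction under the 18 alternatives in which they were tested (17 for miR-18a-5p and miR-99b-5p) and with each of 11 arrays left out, except within single slides (miR-126-3p 0.15 on slide 2; miR-18a-5p -0.076, miR-1949 -0.079, miR-20a-5p -0.16 and miR-3096b-3p -0.16 on slide 3). The number of calls did not hold; the cause was not tested. In place of 13 called (11 higher, 2 lower) it was 0 (0 and 0) with no experiment term, with the slide as block, with scaling over all probes, with quantile normalization (lowest adjusted p = 0.0528), with normexp (0.0523), in the value table (0.145), and on the means of each experiment and time (0.251, 30 at an unadjusted p under 0.05), an alternative chosen after seeing the data. With experiment and the exposure series tag of the descriptions as blocks, chosen likewise, it was 9 (7 and 2), all among the 13. It was 4 (4 and 0) with experiment and slide, 3 (3 and 0) with the floor doubled, which tests 223 miRNAs, 8 (7 and 1) with it at 0.5 times, 12 (11 and 1) with no filter, and 10 to 15 with all 22 arrays, a random slide block, the mean of probes, a stricter filter or a robust fit. The replicate number as a block in place of the experiment gave 5 (4 and 1), and 0 of 5 arrays at 24 h lay closest to the 48 h array of the same number. Leaving out 1 array gave 0 to 14 calls (0 to 13 higher, 0 to 2 lower). These counts were 0 without 24 h replicate 1 (61 at an unadjusted p under 0.05, median of all miRNAs 0.21), 48 h replicate 3 (36) or 48 h replicate 6 (36), 2 without 24 h replicate 3 or 48 h replicate 4, and 8 without 24 h replicate 6 or 48 h replicate 2. miR-27a-3p was called under 11 of 18 alternatives (0.60 to 1.39) and in 8 of 11 fits without an array, miR-93-5p under 4 of 18 and in 1 of 11. The contrast with CsA stayed at 0 calls in each alternative run, with 6 to 30 miRNAs at an unadjusted p under 0.05. Signal near background limits miR-99b-5p and miR-18a-5p, whose values changed with the floor. miR-28a-5p, miR-125a-5p and miR-126-3p also came close to the floor on some arrays. Under the alternatives their values ran from 0.22 to 1.03, from 0.31 to 0.97 and from -0.82 to -0.25.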
